A study of Gallus gallus with 4 samples.

Results

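Transcripts of 10 genes of glutathione synthesis, reduction and transfer were compared between forms of the chicken line PR9692, which was derived from a sarcoma (strain CC.R1). The genes were GSR, GCLC, GSTA2, GSTA3, GSTA4, GSTK1, GSTO2, GSTT1, GSTZ1 and GSTM2. Every probe set that the platform annotation assigns to 1 of these symbols alone was taken, and probe sets assigned to several genes were left out. This gave 17 of the 38535 probe sets and 10 of the 13051 genes that the annotation names. All cells were PR9692 and were stably transfected, with a control short hairpin RNA (shRNA) in 1 form and an shRNA against HOPX, a small homeodomain protein, in the other. The series' design text calls the control form metastatic and the anti-HOPX form non-metastatic. Each form had 2 Affymetrix chicken arrays, 4 in all. Both arrays of each form are titled as biological replicates. The labels do not say how these were obtained, or whether a form was a clone or a pool. The p-values below therefore weigh each difference against the spread between such replicates only, which the test shares in part across probe sets.

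Glutathione is a tripeptide that buffers the redox state of the cell. Glutamate-cysteine ligase, whose catalytic subunit is GCLC, makes its first intermediate, and glutathione reductase (GSR) uses NADPH to return the oxidised form to the reduced one. Glutathione S-transferases couple glutathione to electrophiles such as drugs and products of lipid peroxidation, and they fall into classes named alpha, kappa, mu, omega, theta and zeta. In many cells the transcription factor NRF2 (gene NFE2L2) controls a large part of this system, and BACH1 represses some of the same targets.

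Values are log2 signals per probe set, and each difference subtracts the control mean from the anti-HOPX mean. The 10 genes were picked with the difference between the forms in these arrays already known, so their values are a description, no p-value is printed for them, and the count of those past the test's threshold is given as a description too. The array medians ran from 3.12 to 3.15. The gap between the arrays of a form was wider for anti-HOPX (median 0.25) than for control (median 0.16) over the 14851 probe sets that were tested, those with a mean of at least 4. Both probe sets of HOPX, the targeted gene, lay near the background, at 3.08 to 3.72 in control and 2.92 to 3.54 in anti-HOPX cells, and so do not check the labels. Of 8 mesenchymal markers 7 read 4 or more on every array, among them VIM and FN1, and COL1A2 did not. No measured leukocyte, erythroid, epithelial, hepatocyte or myogenic marker did so, but only 2 of 5 erythroid and 3 of 4 epithelial markers had a probe set. Of the 3 endothelial markers PECAM1 did, at 4.24 to 4.57 on its brightest probe set, while its other probe sets read under 4. By brightest probe set, COL1A1 was the only mesenchymal marker to pass in limma, at 1.73 (limma adjusted p = 0.0020). SPARC differed by 0.41 on its brightest probe set (limma adjusted p = 0.479) and by 1.66 on another (limma adjusted p = 0.018). The brightest COL1A2 probe set read 4.16 and 5.36 in control and 2.79 and 2.39 in anti-HOPX cells, too dim to be tested. The log2 of the summed linear signals of 4 hepatocyte markers was 5.34 to 5.61 on the control and 5.72 to 6.46 on the anti-HOPX arrays. Among them ALB read 5.27 and 3.35 in anti-HOPX replicates 1 and 2, and 3.36 and 4.09 in control. The brightest APOA1 probe set read 4.94 and 3.90 in anti-HOPX replicates 1 and 2, and 3.19 and 3.16 in control, without overlap. FGB and the brightest TTR probe set overlapped between forms, as ALB did. The sum of the myogenic markers was 4.37 on both arrays of control and 4.53 to 4.66 on those of anti-HOPX. Each myogenic marker read 1.79 to 3.49, near the background. The part of these sums in the differences below was not tested.

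GSR, the reductase, had the largest difference of the 10 genes. Its single probe set read 9.08 and 8.88 in control replicates 1 and 2 and 3.78 and 3.36 in the anti-HOPX replicates. The forms were far apart, and both anti-HOPX values lay under 4, near the background. The means were 8.98 ± 0.14 (SD, n = 2) and 3.57 ± 0.30, a difference of -5.41 (SE 0.23). With values under 4 raised to 4, GSR was at least 31.5-fold lower in the anti-HOPX cells. In RNA from a whole culture, fewer cells that carry a transcript and less of it per cell cannot be told apart.

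GCLC, the catalytic subunit of glutathione synthesis, was close in both forms. Its brightest probe set read 8.69 and 8.89 in control and 8.71 and 9.19 in anti-HOPX cells, so the forms overlapped. The difference was 0.16 (SE 0.21). The second probe set differed by -0.02 (SE 0.28), and the third, at 3.40 to 3.57 on the 4 arrays, was too dim to be tested.

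The alpha class transferases did not move alike. GSTA4, which in mammals conjugates the lipid peroxidation product hydroxynonenal, read 6.31 and 6.04 in control and 9.67 and 8.76 in anti-HOPX cells. Both anti-HOPX arrays lay above both control arrays, and they differed from each other by more than the control arrays did. The means were 6.17 ± 0.19 (SD, n = 2) and 9.21 ± 0.64, a difference of 3.04 (SE 0.33), or 8.23-fold. GSTA3, whose human counterpart also isomerises steroid precursors, read 5.90 and 5.70 against 8.31 and 7.80. Its difference was 2.25 (SE 0.24), 4.77-fold higher in the anti-HOPX cells, again without overlap. GSTA2 read 10.23 and 9.98 in control and 10.68 and 9.93 in anti-HOPX cells. Here the anti-HOPX arrays lay on either side of the control arrays, and the difference was 0.20 (SE 0.27). The probe sets of GSTA2 and GSTA3 have names ending in _s_at, which Affymetrix gives to probe sets that match more than one transcript, and signal shared among near-identical alpha class copies was not tested. The name of the GSTA4 probe set has no such ending.

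**Figure D1:**
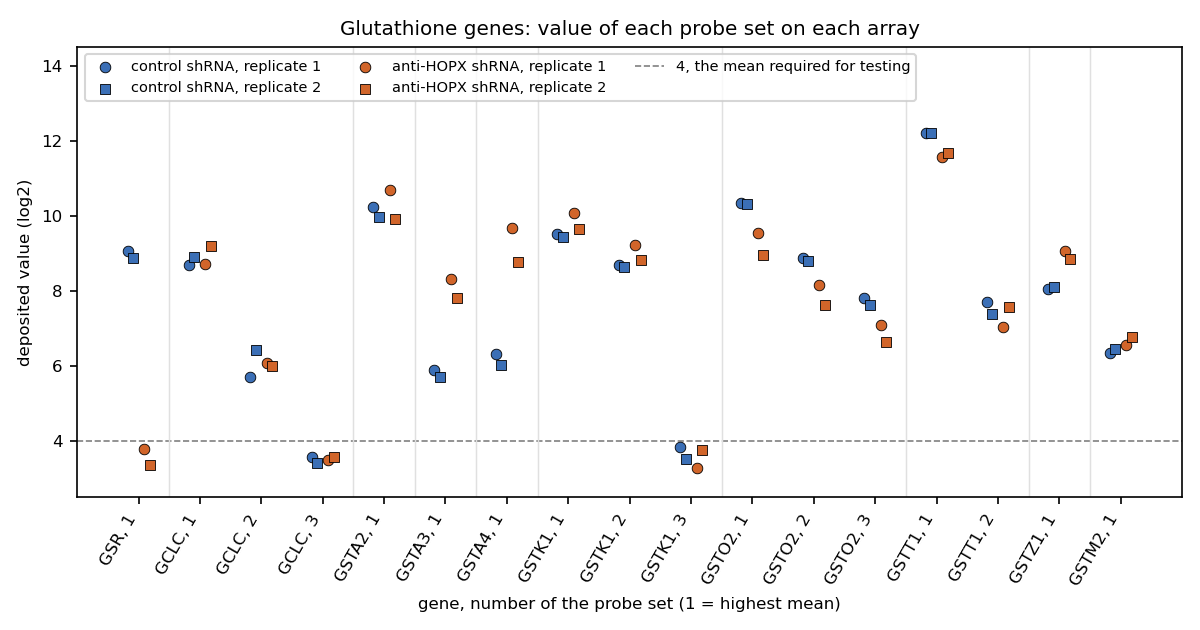
Deposited log2 values (y axis) of the 17 probe sets of the 10 glutathione genes (x axis, grouped by gene), with 1 point per array, control shRNA in blue and anti-HOPX shRNA in orange; the dashed line marks 4, the mean required for testing. GSR drops from 9.08 and 8.88 to 3.78 and 3.36, GSTA3 and GSTA4 lie higher on both anti-HOPX arrays, and the 3 GSTO2 probe sets lie lower on both.

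The omega class gene GSTO2, whose human product reduces dehydroascorbate, was lower by all 3 of its probe sets. The brightest read 10.35 and 10.30 in control and 9.55 and 8.95 in anti-HOPX cells, a difference of -1.08 (SE 0.22) and 2.11-fold lower. Its other probe sets differed by -0.95 (SE 0.22) and -0.86 (SE 0.22). None of the 3 overlapped between forms, and on each of them anti-HOPX replicate 2 was the lowest array. The name of the brightest GSTO2 probe set also ends in _s_at. RefSeq lists GSTO1 as a synonym of this locus.

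GSTT1, of the theta class, read 12.21 in both control replicates and 11.56 and 11.68 in the anti-HOPX replicates by its brightest probe set. The difference was -0.59 (SE 0.11), 1.51-fold lower, without overlap. Its second probe set read 7.70 and 7.38 against 7.03 and 7.57, which overlapped, and differed by -0.24 (SE 0.25). GSTZ1, which as maleylacetoacetate isomerase also takes part in tyrosine breakdown, read 8.04 and 8.11 against 9.06 and 8.84. It was 1.84-fold higher in the anti-HOPX cells, by 0.88 (SE 0.17), and its arrays did not overlap. The name of the single GSTZ1 probe set ends in _a_at, which Affymetrix uses for probes that match several transcripts of a gene.

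The kappa and mu class genes differed least among those without overlap. GSTK1, a transferase of mitochondria and peroxisomes, read 9.52 and 9.44 in control and 10.08 and 9.66 in anti-HOPX cells, a difference of 0.39 (SE 0.18). Its second probe set differed by 0.38 (SE 0.19), and the third, at 3.27 to 3.84, was too dim to be tested. GSTM2, of the mu class, read 6.34 and 6.45 against 6.57 and 6.76, a difference of 0.27 (SE 0.19).

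Counted by the brightest probe set, 3 of the 10 genes passed an adjusted p under 0.05 in limma as higher (GSTA3, GSTA4 and GSTZ1) and 3 as lower (GSR, GSTO2 and GSTT1). Among all 7702 genes tested, each by its brightest probe set, 8.85% passed, 3.62% as higher and 5.23% as lower, and among all 14851 probe sets 7.66% passed. Since the genes were picked with this comparison known, nothing is read from that contrast of shares. The passes under other settings given next come from refits of the same arrays, so they too are only a description. With either control array left out fewer of the 10 passed, and the lowest counts over all probe sets came from the same refits. Without the filter on low values GSR was the one gene of the 10 that passed, beside 274 of 38439 probe sets in all. GSTO2 passed by its brightest probe set and not by its other probe sets, and it no longer passed with robust eBayes or after a further quantile normalisation. With eBayes run without an intensity trend neither GSTO2 nor GSTT1 passed, and without anti-HOPX replicate 1 GSTZ1 did not. The median difference was 0.23 over the 10 genes and 0.02 over all genes. Of the 15 probe sets bright enough to be tested, 11 did not overlap between forms, 6 with the anti-HOPX arrays above and 5 below, beside 55.9% of all tested probe sets. On these 15, the median absolute gap between arrays of a form was 0.45 for anti-HOPX and 0.18 for control. Replicate 1 was above replicate 2 on 11 of the 15 for anti-HOPX and on 10 of the 15 for control, compared with 48.4% and 52.1% of all tested probe sets.

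**Figure D2:**
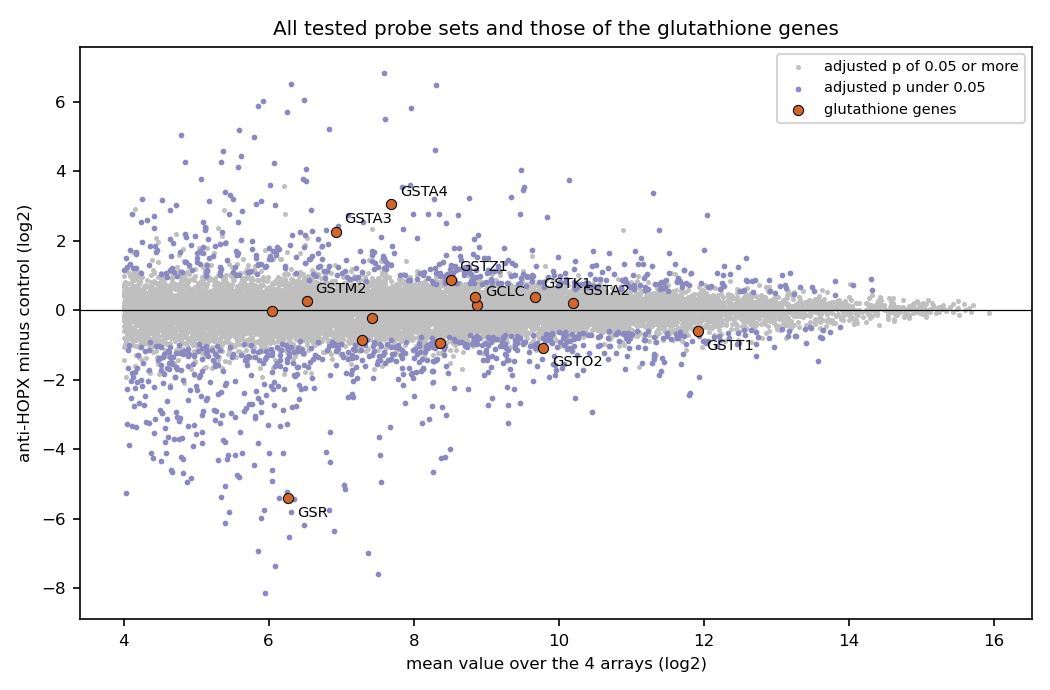
Difference between forms (anti-HOPX minus control, log2, y axis) against the mean over the 4 arrays (log2, x axis) for the 14851 tested probe sets, with those at an adjusted p under 0.05 in violet and the 15 of the glutathione genes in orange, the brightest of each gene labelled. GSR lies at -5.41 and GSTA4 at 3.04, while GCLC lies at 0.16 and GSTA2 at 0.20.

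The genes whose values over the 4 arrays were most like those of GSR were sought by the Euclidean distance between mean-centred values, over 7702 genes. With 4 arrays in 2 forms this measure mainly picks genes with a fall of the same size. The nearest were APBB1IP, a Rap1 effector, at a distance of 0.30 and a difference of -5.43, TTLL8, of the tubulin tyrosine ligase-like family, at 0.34 and -5.26, and GFPT2, an enzyme of the hexosamine pathway, at 0.45 and -5.80. TTC32 followed at 0.47 with -5.06 and the matrix protein FBLN1 (fibulin-1) at 0.52 with -4.90. All 5 read under 4 on both anti-HOPX arrays, as GSR did, so that the sizes depend on values near the background.

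GCLC and the alpha class genes lie close together on chromosome 3 in the RefSeq annotation of the assembly GRCg7b, which was used for gene order. The neighbours were taken by position, up to 5 protein-coding genes beyond GCLC and GSTA2, after the values of the 10 genes were known. In this order GCLC is followed by ELOVL5, GCM1, FBXO9, ICK, LOC121113147, LOC396380, GSTA4, GSTA3, LOC100859645, LOC395611, GSTA2 and TMEM14A. LOC395611, a protein-coding locus without a gene name in either annotation, lies between GSTA3 and GSTA2 and went the opposite way from GSTA3. It read 10.04 and 9.99 in control and 5.68 and 4.47 in anti-HOPX cells, which is -4.94 between the forms (SE 0.40, limma adjusted p = 0.0034) and a 30.7-fold fall. Thus loci within this stretch differed in opposite directions, with GSTA4 and GSTA3 higher, LOC395611 lower and GSTA2 overlapping. Its single probe set has a name ending in _a_at, which Affymetrix uses for probes that match several transcripts of a gene.

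On the other side of GSTA4, LOC396380, for which RefSeq lists the synonym GSTAL3, read 8.10 and 7.52 against 7.79 and 7.23, with overlap and a difference of -0.30 (SE 0.29, limma adjusted p = 0.58). ELOVL5, a fatty acid elongase, rose by 0.78 (limma adjusted p = 0.022) on its brightest probe set, while the second one differed by 0.63 (limma adjusted p = 0.31). The kinase gene ICK differed by 0.96 (limma adjusted p = 0.054), FBXO9 by -0.23 and TMEM14A by -0.49 (limma adjusted p of 0.70 and 0.21). Of the 18 neighbours 8 were bright enough to be tested. GSR lies on chromosome 4, where 7 of its 10 nearest protein-coding neighbours were tested, and these differed by -0.37 to 0.37. The genes on either side of GSR, the betacellulin gene BTC and the phosphatase subunit gene PPP2CB, read 2.65 to 2.69 on the 4 arrays, too dim to be tested, and 9.83 to 10.02, with a difference of 0.09 (SE 0.14, limma adjusted p = 0.73).

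**Figure D3:**
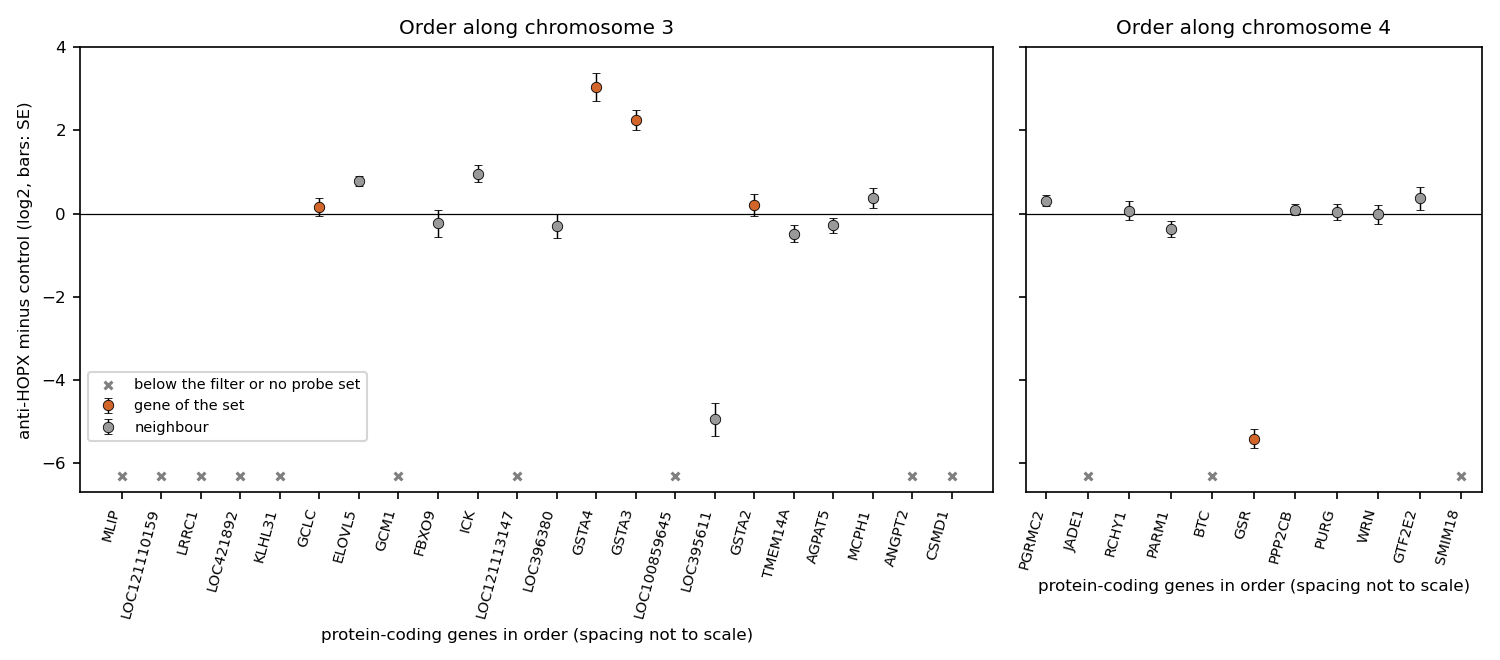
Difference between forms (anti-HOPX minus control, log2, with SE bars from limma, y axis) of the brightest probe set of each protein-coding gene in chromosomal order (x axis, spacing not to scale), around GCLC to GSTA2 on the left and around GSR on the right; crosses mark genes with no probe set or a brightest probe set too dim to be tested. GSTA4 (3.04) and GSTA3 (2.25) lie above 0 beside LOC395611 (-4.94), and the tested neighbours of GSR lie between -0.37 and 0.37.

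Other genes of glutathione and redox metabolism were taken from 9 lists of 132 genes, of which 75 were bright enough to be tested. Of the 75, 2 rose, 6 fell and 67 did not pass in limma, so that 10.7% passed, beside 8.85% of all genes. The lists too were chosen with earlier results of these data known. Their counts and p-values are therefore a description, and nothing is read from that contrast of shares. The median difference was -0.13, beside 0.02 over all genes. At an unadjusted limma p under 0.05 were 26 of the 75. The share of all genes at that level is not given, so nothing is read from unadjusted counts here or list by list below. With either control array left out fewer of the 75 passed, and the lowest counts over all probe sets came from the same refits. Without the filter on low values 2 of 105 listed genes passed, ANPEP and MSRB3, beside 274 of 38439 probe sets in all.

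Among 7 tested genes of glutathione synthesis and breakdown, ANPEP fell and 6 did not pass (median -0.37). ANPEP, an aminopeptidase that cleaves the dipeptide left by glutathione breakdown among other peptides, averaged 5.93 ± 0.10 (SD, n = 2) in control and 3.07 ± 0.03 in anti-HOPX cells, at least 3.82-fold lower (limma adjusted p = 0.0018). Both anti-HOPX values of ANPEP lay under 4, near the background, and with values under 4 raised to 4 the difference was -1.93. GCLM, the modifier subunit that works with GCLC, read 11.64 and 11.45 against 11.43 and 10.91, or -0.37 between the forms (SE 0.20, limma adjusted p = 0.31). GSS, which completes glutathione, differed by 0.54 on its brightest probe set (SE 0.15, limma adjusted p = 0.099). Its second probe set overlapped between forms and differed by 0.05 (SE 0.32, limma adjusted p = 0.945). CHAC1, which degrades glutathione, differed by 0.69 (SE 0.21, limma adjusted p = 0.11). None of 6 genes of cysteine and methionine supply passed in limma (1 at an unadjusted p under 0.05, median -0.25), with CTH, the cystathionine lyase that releases cysteine, at -1.20 (SE 0.36, limma adjusted p = 0.11) and MPST at -0.49 (limma adjusted p = 0.23). The brightest probe set of the cystine transporter gene SLC7A11 read 2.64 to 2.72 on the 4 arrays, too dim to be tested.

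Of 6 other transferase genes, MGST1 fell and 5 did not pass (median -0.24). MGST1, a membrane-bound transferase of the endoplasmic reticulum and mitochondria, read 11.65 and 11.55 in control and 10.48 and 10.09 in anti-HOPX cells, a fall of 1.31 on the log2 scale (SE 0.17, limma adjusted p = 0.015). By its second probe set the fall was 1.46 on the log2 scale (limma adjusted p = 0.0069). MGST3 differed by -0.72 (limma adjusted p = 0.099) and GSTCD by -0.32 (limma adjusted p = 0.54). Of 10 peroxidases, glutaredoxins and related enzymes, 1 rose and 9 did not pass (median 0.05). This was GPX7, a peroxidase of the endoplasmic reticulum, which read 6.50 and 6.70 against 7.56 and 7.53 (0.95, SE 0.18, limma adjusted p = 0.042). GLRX, glutaredoxin, differed by 1.01 (limma adjusted p = 0.052) and GPX1 by -0.44 (limma adjusted p = 0.36).

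In the thioredoxin and peroxiredoxin system 1 of 14 tested genes fell (median -0.07). MSRB3, a methionine sulfoxide reductase, read 6.99 and 7.22 in control and 4.22 and 4.19 in anti-HOPX cells, 7.46-fold lower (limma adjusted p = 0.0019). Both anti-HOPX values of MSRB3 lay close to the background, so the size of its fold depends on them. PRDX6 differed by 0.44 and SESN1 by -0.41 (limma adjusted p of 0.068 and 0.19). TXNRD1, thioredoxin reductase, read 3.97 to 4.06 on the 4 arrays, close to the background, and differed by 0.05 (limma adjusted p = 0.91).

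Of 13 tested genes of NADPH supply 2 fell (median -0.14). ME1, the cytosolic malic enzyme, read 11.01 and 10.76 against 9.69 and 8.75, a fall of 1.66 on the log2 scale (SE 0.32, limma adjusted p = 0.040). With eBayes run without an intensity trend ME1 no longer passed (limma adjusted p = 0.060). MTHFD2L, a mitochondrial folate enzyme, read 5.06 and 4.86 against 4.04 and 3.81 (limma adjusted p = 0.045). Its anti-HOPX mean was 3.92, near the background. After a further quantile normalisation MTHFD2L no longer passed (-0.97, limma adjusted p = 0.053). IDH1, isocitrate dehydrogenase, differed by -0.70 and NADK, NAD kinase, by -0.60 (limma adjusted p of 0.14 and 0.22).

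Of 13 tested NRF2 regulators and targets 1 rose and 1 fell (median -0.23). NFE2L2 read 11.40 and 11.35 in control and 10.79 and 10.78 in anti-HOPX cells, a fall of 0.59 on the log2 scale (SE 0.11, limma adjusted p = 0.041). By its second probe set the fall was 0.70 (limma adjusted p = 0.042). With eBayes run without an intensity trend the brightest NFE2L2 probe set no longer passed (limma adjusted p = 0.086). BACH1 averaged 7.98 ± 0.08 (SD, n = 2) in control and 8.91 ± 0.12 in anti-HOPX cells, without overlap, a rise of 0.94 (SE 0.16, limma adjusted p = 0.033), while its other tested probe sets lay at 0.67 (limma adjusted p = 0.15) and 0.38 (limma adjusted p = 0.30). HMOX1, heme oxygenase, differed by -0.54 (limma adjusted p = 0.052), EPHX1, an epoxide hydrolase, by -0.80 (limma adjusted p = 0.065) and the small MAF protein gene MAFF by -1.02 (limma adjusted p = 0.16). NQO1 read 2.00 to 2.06 by its brightest probe set, too dim to be tested.

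None of 3 genes of superoxide dismutases and catalase passed in limma (1 at an unadjusted p under 0.05, median 0.24), with CAT at 0.57 and SOD1 at 0.24 (limma adjusted p of 0.11 and 0.33). None of 3 tested exporters of glutathione conjugates and related compounds passed in limma either (2 at an unadjusted p under 0.05, median -0.50). ABCC1 differed by -0.50 (limma adjusted p = 0.051). The brightest ABCC5 probe set differed by -0.75 (limma adjusted p = 0.050, just above the threshold before rounding), but another of its probe sets differed by 0.76 (limma adjusted p = 0.075), so the probe sets of ABCC5 disagreed in sign.

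**Figure D4:**
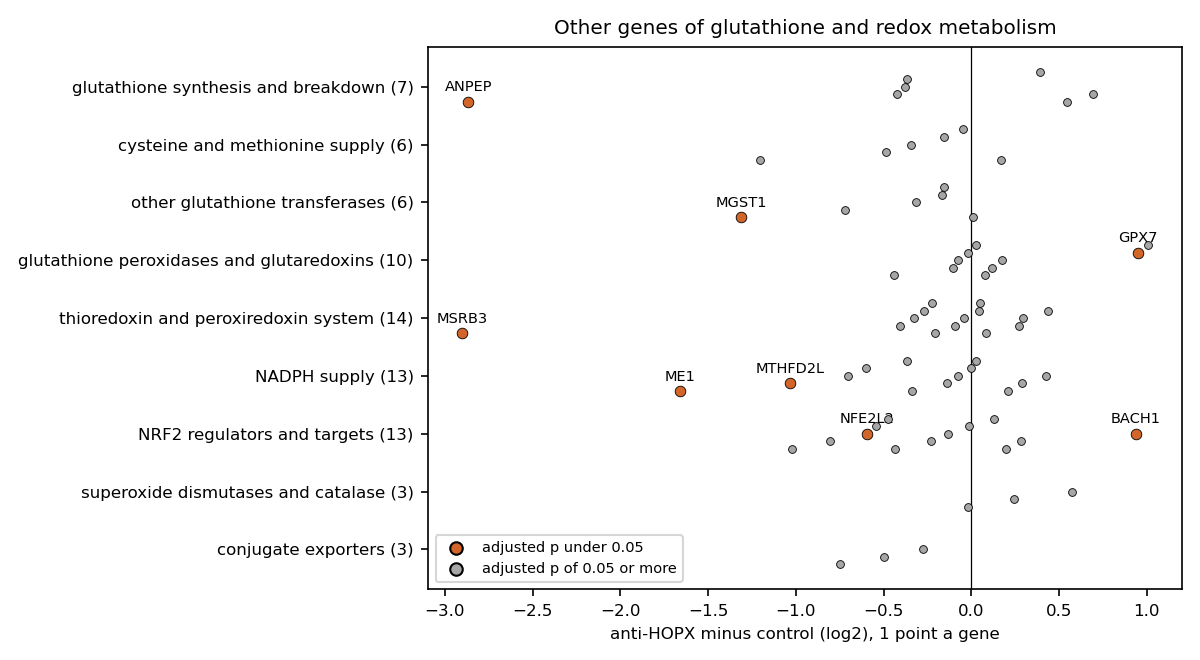
Difference between forms (anti-HOPX minus control, log2, x axis) of the 75 other tested genes, 1 point per gene by its brightest tested probe set, grouped by list (y axis, number of tested genes in brackets), with the 8 genes at an adjusted p under 0.05 in orange and named. ANPEP (-2.87) and MSRB3 (-2.90) lie farthest from 0, and ANPEP reads under 4 on both anti-HOPX arrays.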

How the data were processed

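Total RNA of cultured cells was turned into biotin-labelled cRNA and hybridised to Affymetrix arrays, per the labels' protocols. The authors deposited 1 log2 value for each probe set on each array, and the submitters' processing notes name GCRMA and Partek 6.4 without their roles. GCRMA corrects background by a model of probe sequence and pulls dim probe sets to a narrow floor, so folds of silent genes depend on it. The scale was read from the values.

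Probe sets were named by the platform annotation. Both forms were compared with limma 3.58.1, run in R 4.3.3 (lmFit, eBayes with an intensity trend, no replicate block) over the 14851 probe sets with a mean of at least 4, without the 96 control probe sets. P-values are two-sided and Benjamini-Hochberg adjusted, with a threshold of 0.05. The smallest p that an exact permutation of 2 against 2 arrays allows is 0.33, so calls rest on limma's spread, shared across probe sets. Errors of means are SDs over 2 arrays, and SEs of differences are limma's. The number of arrays limits the precision. Of the 132 listed genes 105 were matched, and a gene was represented by its brightest tested probe set.

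The members and lists were chosen with earlier results of these data known. Named by rule were all members, HOPX, the listed genes that passed (at most 5 a list) and up to 2 a list that did not by size of difference, 8 genes of the NRF2 system where measured, and the 5 genes nearest GSR. The neighbours were added after values were seen. The fit was run on simulated data with known shifts. Spreads were shuffled among probe sets and alike in both forms there, so that run does not test the intensity trend. No result above rests on it. Alternatives were other filters, variance models, normalisation, thresholds, probe set choices, a block for the replicate number, and fits that omit 1 array.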

Additional observations from a re-analysis of the deposited data

How the results depend on the processing

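The values rest on 2 arrays a form. Leaving out each array in turn gave 142 to 1734 probe sets called in all against 1138, 2 to 17 of the 75 listed genes against 8, 1 to 6 of the 10 glutathione genes against 6, and 12 to 14 probe sets without overlap against 11 of 15. The lowest counts of calls came without control replicate 1 or 2, and the lone array was assumed to vary like the other form. Leaving out an array can only keep or raise the number of probe sets without overlap. The rise from 11 to between 12 and 14 is therefore no check of the result. The share of all tested probe sets without overlap in these fits is not given. Without the filter on low values, where 38439 probe sets were tested, 274 probe sets, 2 listed genes and 1 glutathione gene were called. Restricting the fit to names with no _x_at, _s_at or _a_at ending leaves 7 of the 10 genes and 9 of their probe sets. This gave 3 called genes and 7 probe sets without overlap, beside 857 of 9257 probe sets called in all. The share of those 9257 probe sets without overlap is not given, nor the share of all genes called. Nothing is therefore read from either count. With a 2-fold minimum 5 of the 75 listed genes were called, beside 814 of 14851 probe sets in all. With the replicate number as a block 2698 of 14851 probe sets, 24 of the 75 listed genes and 6 of the 10 glutathione genes were called. The share of all genes called with the block is not given, so nothing is read from these counts. The replicate numbers only name the arrays, since the labels give no pairing and there are 2 pairs. The gaps between replicates of the forms correlated at 0.25 across probe sets. The counts for the 10 genes under these settings were added after seeing the data. GSR kept its sign under all 8 alternatives run for it, between -5.62 and -4.98, and so did GSTA4 (2.59 to 3.49, 8 alternatives) and GSTA3 (2.00 to 2.51, 7 alternatives). For most of these alternatives a kept sign was fixed beforehand. Where forms do not overlap, leaving out 1 array cannot turn the sign. The block and the restriction by probe set name leave the difference of a probe set as it was. The sign turned under at least 1 alternative for both tested GCLC probe sets, GSTA2 and the second GSTT1 probe set, and not for the other tested probe sets. With each array left out in turn GSTCD ran from -0.66 to 0.024, its sign turning without anti-HOPX replicate 2.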
